A study of Mus musculus with 22 samples.

Results

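A set of 8 marker genes of lung cells other than T cells was followed through RNA-seq libraries of sorted CD4 T cells. Lyz2 and Apoe represented macrophages and monocytes, Cd74 and H2-Ab1 antigen presentation through MHC class II, Igkc and Ighm B cells and plasma cells, Sftpc alveolar type 2 epithelium, and Pf4 platelets and megakaryocytes. They are 8 of the 55291 gene names in each library. They were chosen by name with their levels in these libraries already known, so their own levels are given below as a description, without tests.

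The series compared memory T helper 2 cells by where they were recovered, tissue or circulation, and by the population they derived from, tissue-resident memory cells (ex-TRM) or circulating memory cells (ex-Tcirc). Its design text describes donor Th2 effector cells from OT-II creERT2 or DO11.10 mice, which carry T cell receptors specific for the egg protein OVA. They were transferred into hosts, either C57BL/6 (Ly5.2) mice or BALB/c-nu/nu mice, that had been sensitized with OVA through the nose. In one experiment tamoxifen switched on Cre recombination and cells were sorted on day 49. In the other, lung cells from the DO11.10 transfer were moved into new BALB/c-nu/nu hosts and sorted on day 71 after OVA was given again.

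The 8 RNA libraries form 4 groups of 2, namely tissue ex-Tcirc, tissue ex-TRM, circulating ex-Tcirc and circulating ex-TRM. All 8 carry the same labels for tissue (lung), cell type (CD4 T cell), sex (female), age (6 to 10 weeks) and host strain (Balb/c). The labels do not say which experiment each RNA library belongs to, so the genotype and the use of tamoxifen cannot be assigned to single groups. The only BALB/c hosts in the design text are BALB/c-nu/nu mice. The strain label points to them but does not name nu/nu, so the host is not certain. The design text names peripheral blood as the source of circulating ex-TRM cells and lung as the source of tissue cells. Between 3000 and 50000 cells were sorted per population by CD45 and Ly5 alleles and CD69. BALB/c-nu/nu mice lack a thymus and have few T cells of their own, but they keep B cells, macrophages, platelets and epithelium. The promoter that drives creERT2, pooling of animals and whether replicates were separate animals are not stated, so a p-value here rests on variation among libraries that could be technical.

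Lung holds many macrophages, which express Lyz2, a lysozyme that breaks bacterial cell walls, and Apoe, a lipid carrier. Class II molecules, paired alpha and beta chains that the invariant chain Cd74 guides through the cell, present peptides to CD4 T cells and are made by B cells, dendritic cells and macrophages, and also by alveolar type 2 cells. B cells and plasma cells make immunoglobulin from the kappa light chain constant gene Igkc and, for IgM, the heavy chain constant gene Ighm. Alveolar type 2 cells secrete surfactant, of which Sftpc encodes protein C. These products are typical of those cells rather than of mouse CD4 T cells, whose own identity genes include Cd3e, Trac and Cd4.

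Circulating ex-TRM replicate 1 was nearly empty, with 917 gene names above 0, 0 of 15 T cell identity genes and 0 of the 8 markers, and is treated as missing. In the other 7 libraries 7042 to 37894 gene names were above 0, and 11 to 15 of the 15 T cell identity genes. Cd3e was at 178 to 306 FPKM and Trac at 493 to 753 FPKM in these 7 libraries. No total read counts come with the values. Steps between the values of small RNA genes, where 1 fragment has a fixed worth for a given length, put tissue ex-TRM replicate 1 deepest. Tissue ex-TRM replicate 2 had an estimated 89.4% of its depth, tissue ex-Tcirc replicates 1 and 2 had 24.0% and 56.8%, and circulating ex-TRM replicate 2 had 25.1%. Each step was the best of many tried, which by itself raises the share of values on whole multiples. At these steps only 12.3% to 18.2% of the small RNA values fell on whole multiples, within a tolerance of 0.03, so the estimates are rough. Circulating ex-Tcirc replicate 1 came out at 42.4%, from 302 values of which 26.5% fell on whole multiples, although it listed far fewer genes than libraries with lower estimates. Replicate 2, with 82 values, could not be placed.

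In the RefSeq annotation of GRCm38.p6, the patch release of mm10, Lyz2 spans chr10:117277541-117282272 and its copy Lyz1 spans chr10:117287795-117292868, 5522 bases away. Apoe lies at chr7:19696244-19701310, H2-Ab1 at chr17:34263227-34269418, Sftpc at chr14:70520941-70524081 and Pf4 at chr5:90772435-90773383. Igkc, a constant region of 320 bases at chr6:70726435-70726754, and Ighm, at chr12:113418826-113422730, are annotated as immunoglobulin constant regions rather than as protein-coding genes. The other 6 are annotated as protein-coding.

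The start-site regions of the lysozyme copies are shown to compare their letters. Each run below ends at the base before the gene start on the minus strand of GRCm38.p6, and capitals mark the letters that differ. Lyz2 covers chr10:117282273-117282382 and Lyz1 covers chr10:117292869-117292978.
Lyz2: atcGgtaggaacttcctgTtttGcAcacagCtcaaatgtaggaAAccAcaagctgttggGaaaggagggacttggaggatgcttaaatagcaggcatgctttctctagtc
Lyz1: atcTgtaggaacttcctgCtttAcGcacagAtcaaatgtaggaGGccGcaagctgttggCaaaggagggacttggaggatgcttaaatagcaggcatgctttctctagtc
Of 110 bases, 101 were identical (91.8%) and 9 differed, and the 50 bases next to the start had no difference. Past the start, 49 of the 50 bases in the RefSeq table were identical as well. The bases before the start lie outside the annotated genes, so this comparison does not show whether fragments were split between the copies. Lyz1 was at 0 to 54.1 FPKM, and Lyz2 over Lyz1 was between 11.9 and 17.9 in the 4 libraries that listed both. A split of fragments between the copies was not tested.

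H2-Aa, the class II A alpha chain, and H2-Eb1, the E beta chain, lie on chromosome 17 like H2-Ab1 and varied with it. Their start-site regions are therefore shown. Not all class II list genes varied in this way, since H2-DMb1 and H2-Ob were listed at 0 in all 7 libraries. H2-Aa covers chr17:34287824-34287943 on the minus strand and H2-Eb1 covers chr17:34305747-34305866 on the plus strand, each ending at the base before the gene start. Capitals mark CTGATTGG, the core of the Y box known from class II promoters.
H2-Aa: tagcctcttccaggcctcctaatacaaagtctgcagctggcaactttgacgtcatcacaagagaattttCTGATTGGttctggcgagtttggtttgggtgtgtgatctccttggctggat
H2-Eb1: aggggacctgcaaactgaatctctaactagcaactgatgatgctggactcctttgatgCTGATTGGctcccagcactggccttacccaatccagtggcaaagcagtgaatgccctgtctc
CTGATTGG, searched on both strands from 250 bases before to 50 after the start, lay 51 to 44 bases before the start of H2-Aa and 62 to 55 bases before that of H2-Eb1. It was found in 3 of the 8 class II list genes with an available promoter (H2-Aa, H2-Eb1 and H2-Oa), where any promoter of a gene counted. Counted per promoter rather than per gene, it was found in 1346 of all 32851 promoters (4.1%). No promoter was available for Cd74, H2-Ab1 and Ciita. Such a match describes the letters only.

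FPKM values below are given for replicate 1 and then replicate 2 of a group. Igkc was at 281 and 41.4 FPKM among ex-Tcirc cells from tissue, 12.1 and 32.5 among ex-TRM cells from tissue, 161 and 0 among circulating ex-Tcirc cells, and 24.9 in replicate 2 of circulating ex-TRM. Ighm was at 111 and 21.0 FPKM among ex-Tcirc cells from tissue, 7.11 and 16.6 among ex-TRM cells from tissue, 88.3 and 0 among circulating ex-Tcirc cells, and 8.84 in replicate 2 of circulating ex-TRM. Both immunoglobulin genes were highest in tissue ex-Tcirc replicate 1 and next highest in circulating ex-Tcirc replicate 1, and both were listed at 0 in circulating ex-Tcirc replicate 2. Their ratio, Igkc over Ighm, stayed between 1.70 and 2.82 in the 6 libraries that listed them, while Igkc itself varied 23.2-fold.

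Cd74 was at 68.3 and 13.9 FPKM among ex-Tcirc cells from tissue, 9.43 and 16.5 among ex-TRM cells from tissue, 265 and 7.62 among circulating ex-Tcirc cells, and 32.6 in replicate 2 of circulating ex-TRM. H2-Ab1, the class II A beta chain, was at 28.8 and 9.39 FPKM among ex-Tcirc cells from tissue, 6.05 and 9.60 among ex-TRM cells from tissue, 113 and 0 among circulating ex-Tcirc cells, and 13.8 in replicate 2 of circulating ex-TRM. Here the order differed from that of the immunoglobulins, with circulating ex-Tcirc replicate 1 highest and tissue ex-Tcirc replicate 1 next. Cd74 over H2-Ab1 ranged from 1.48 to 2.37 in 6 libraries, while Cd74 varied 28.0-fold among them. Igkc over Cd74, across cell classes, ranged more widely, from 0.610 to 4.12.

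Lyz2 was at 114 and 29.7 FPKM among ex-Tcirc cells from tissue, 49.7 and 77.5 among ex-TRM cells from tissue, 646 and 255 among circulating ex-Tcirc cells, and 50.6 in replicate 2 of circulating ex-TRM. It was the only one of the 8 above 50 FPKM in both circulating ex-Tcirc libraries. Apoe was at 116 and 37.8 FPKM among ex-Tcirc cells from tissue, 39.9 and 37.3 among ex-TRM cells from tissue, 177 and 0 among circulating ex-Tcirc cells, and 19.0 in replicate 2 of circulating ex-TRM. The macrophage genes did not keep a fixed ratio, since Lyz2 over Apoe ran from 0.785 in tissue ex-Tcirc replicate 2 to 3.66 in circulating ex-Tcirc replicate 1. In circulating ex-Tcirc replicate 2, Lyz2 stood at 255 FPKM beside an Apoe listed at 0.

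Sftpc was at 44.4 and 0 FPKM among ex-Tcirc cells from tissue, 3.48 and 0 among ex-TRM cells from tissue, 421 and 0 among circulating ex-Tcirc cells, and 23.0 in replicate 2 of circulating ex-TRM. This epithelial gene was thus highest in a library of circulating cells, and it was listed at 0 in the second replicate of every group except circulating ex-TRM. Pf4, a platelet chemokine, was at 10.7 and 3.41 FPKM among ex-Tcirc cells from tissue, 2.94 and 0 among ex-TRM cells from tissue, and 0 in the 3 circulating libraries. It was the lowest of the 8 in FPKM, or shared the value 0, in every library but tissue ex-Tcirc replicate 2, where Sftpc was listed at 0.

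**Figure D1:**
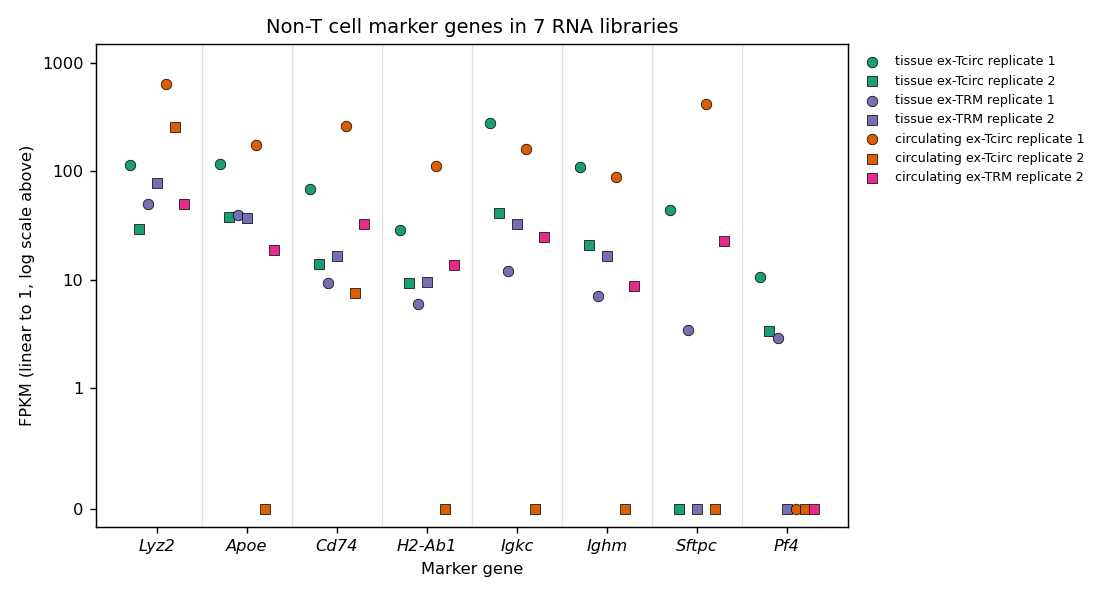
FPKM of the 8 marker genes (x axis) in 7 libraries on an axis that is linear to 1 and logarithmic above (y axis), with 1 point per library, circles for replicate 1 and squares for replicate 2, colours for groups. Circulating ex-Tcirc replicate 1 is highest for Lyz2, Apoe, Cd74, H2-Ab1 and Sftpc, and tissue ex-Tcirc replicate 1 for Igkc, Ighm and Pf4.

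Within libraries the order of the markers changed. In tissue ex-Tcirc replicate 1 Igkc led and ranked 219 among all gene names, with 99.6% of names below it. In tissue ex-TRM Lyz2 led in both replicates, at ranks 1145 and 681. In circulating ex-Tcirc replicate 1 Lyz2 ranked 117, Sftpc 162 and Cd74 236. Group means had spreads that left the order of groups undetermined: Igkc was at 161 ± 170 FPKM (SD, n = 2) in tissue ex-Tcirc and 22.3 ± 14.4 (SD, n = 2) in tissue ex-TRM. Cd74 was at 136 ± 182 FPKM (SD, n = 2) in circulating ex-Tcirc and 41.1 ± 38.5 (SD, n = 2) in tissue ex-Tcirc. Bulk values cannot tell fewer cells of a type from less RNA per cell.

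Ratios to other genes of the same lists varied from pair to pair. H2-Ab1 over H2-Aa ranged from 2.47 to 4.47 and H2-Ab1 over H2-Eb1 from 2.50 to 4.62 in 6 libraries, while H2-Ab1 varied 18.7-fold. Sftpc over Sftpa1, another surfactant protein gene, was between 3.90 and 4.53 in the 3 libraries that listed both. Lyz2 over Ctss, a cathepsin of macrophages and other antigen-presenting cells, was between 1.56 and 2.71 in 6 libraries and 82.9 in circulating ex-Tcirc replicate 2. In that last library Ctss was at 3.08 FPKM. Not every related gene was listed where a marker was high: in circulating ex-Tcirc replicate 1 Sftpb was at 0 beside Sftpc at 421 FPKM, and Jchain at 0 beside Igkc at 161. These ratios are across at most 7 libraries of unequal depth, and they carry no p.

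**Figure D2:**
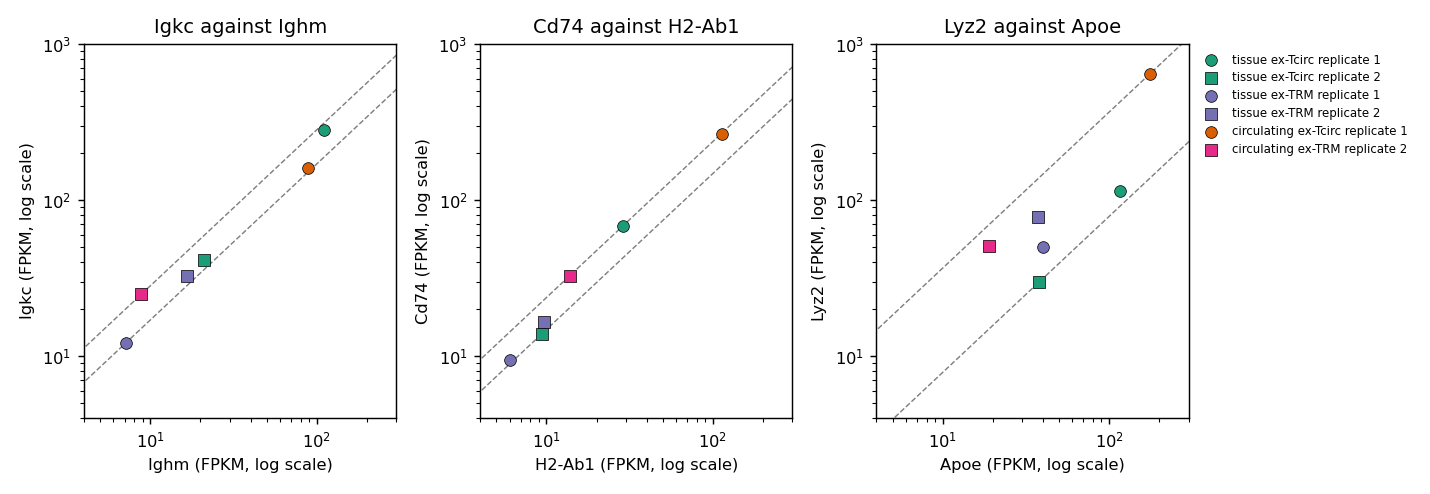
FPKM of 2 genes against each other on log axes, Igkc against Ighm, Cd74 against H2-Ab1 and Lyz2 against Apoe, with 1 point per library for the 6 libraries that listed both and dashed lines at the lowest and highest ratio. The lines lie close together in the first pair of panels (ratios of 1.70 to 2.82 and 1.48 to 2.37) and farther apart in the last (0.785 to 3.66).

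Other genes were ranked by their correlation with each marker on log2(FPKM + 1) over the 7 libraries, among 2147 genes with a mean of at least 20 FPKM. The 2147 leave out the 8 markers and predicted genes, which are named Gm with digits or end in Rik. For Igkc the closest were Rpl19-ps7 (Pearson r = 0.94), mt-Tt (0.93) and Prpf4b (0.93), and for Ighm mt-Tt (0.94), Prpf4b (0.92) and Rpph1 (0.90). For H2-Ab1 they were mt-Tt (0.98), Tigit (0.98) and Gpx1 (0.98), for Cd74 and also for Sftpc they were Rpl6, Psmb6 and Pgc, and for Apoe Plin2 (0.98), Lamp1 (0.98) and Washc2 (0.97). Iqsec1 (0.98), Rab7-ps1 (0.97) and mt-Nd4l (0.95) were closest to Lyz2, and Rprl3 (0.91), Rmrp (0.84) and Snora68 (0.82) to Pf4. Several are expressed in every cell, and with 7 libraries of unequal depth these values describe shared shape only. Pgc, which alveolar type 2 cells express, reached 158 FPKM in replicate 1 of circulating ex-Tcirc, 21.9 in replicate 1 of tissue ex-Tcirc and 11.4 in replicate 2 of circulating ex-TRM, and did not exceed 1.40 elsewhere. Among the 8, Igkc and Ighm had r = 0.99, while Lyz2 and Apoe had r = -0.000234. Pairs from different cell classes ranged from -0.39 for Lyz2 and Pf4 to 0.95 for Apoe and Ighm, so high values were not particular to genes of the same class. All these values include circulating ex-Tcirc replicate 2, where Apoe, Igkc and Ighm were listed at 0 and Lyz2 was at 255 FPKM.

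The 8 markers were read beside 13 lists of non-T cell markers with 165 genes in all, the 8 included. Summed over all lists, non-T markers amounted to 31.2% and 6.58% of the summed FPKM of the 15 T cell identity genes for ex-Tcirc cells from tissue, 6.52% and 9.06% for ex-TRM cells from tissue, 68.9% and 8.03% for circulating ex-Tcirc cells, and 7.55% for replicate 2 of circulating ex-TRM. The 8 alone amounted to 17.5% and 2.96% for ex-Tcirc cells from tissue, 2.33% and 3.46% for ex-TRM cells from tissue, 41.0% and 5.31% for circulating ex-Tcirc cells, and 2.91% for replicate 2 of circulating ex-TRM. They supplied 35.7% to 66.1% of the summed non-T values. The largest totals were thus in 1 library each of tissue and of circulating ex-Tcirc.

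By class, the macrophage and monocyte list of 28 genes summed to 144 to 470 FPKM in tissue and 149 to 1502 FPKM in circulation. Its defining markers were uneven: Csf1r, the colony stimulating factor receptor of macrophages, was above 0 in 7 libraries, Chil3, a chitinase-like protein of alveolar macrophages, in 6, the complement gene C1qa in 4, Adgre1, which encodes F4/80, in 3, and Marco, a scavenger receptor, in 0. In circulating ex-Tcirc replicate 2 Csf1r was at 45.2 FPKM, against 2.24 to 10.9 in the others, and Chil3 was listed at 0 there. In circulating ex-Tcirc replicate 1 Chil3 was at 82.6 FPKM and Ear2, a ribonuclease, at 65.5. C1qa was at 12.2 and 3.61 FPKM among ex-Tcirc cells from tissue, 2.13 and 2.02 among ex-TRM cells from tissue, and 0 in circulation.

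The class II list of 11 genes summed to 24.2 to 148 FPKM in tissue and 7.62 to 492 in circulation. Cd74 was the highest of it in all 7 libraries. H2-DMa, which loads peptide onto class II, was at 43.8 FPKM in circulating ex-Tcirc replicate 1 and at 3.17 to 8.37 in tissue. Ciita, the transcriptional coactivator of class II genes, was above 0 in 4 of 7 libraries, at no more than 2.86 FPKM.

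In the B cell and plasma cell list of 23 genes Igkc was the highest in 6 libraries, and the list summed to 0 in circulating ex-Tcirc replicate 2. The B cell receptor gene Cd79a was listed at 0 in all 7 libraries, as were Cd79b, Igha, Mzb1 and Blk. Ms4a1, which encodes CD20, was above 0 in 3 libraries, and Jchain, which joins IgM and IgA polymers, in 4. Jchain was at 16.2 and 3.03 FPKM among ex-Tcirc cells from tissue, 0.953 and 2.88 among ex-TRM cells from tissue, and 0 in circulation. The light chain gene Iglc1 was at 63.1 FPKM in circulating ex-Tcirc replicate 1 and at 0 to 1.43 elsewhere.

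Among 10 alveolar type 2 genes, Sftpa1 was above 0 in 4 libraries, Sftpb in 2 and Sftpd in 1. Abca3, a lipid transporter of lamellar bodies, was at 6.25 to 8.13 FPKM over 4 tissue libraries and 6.67 in circulating ex-TRM replicate 2, a narrow range beside that of Sftpc. Among 13 platelet genes, Itgb3, an integrin chain that T cells can also make, gave the largest part of the sum in every library, at 17.9 to 52.5 FPKM, and Itga2b was at 1.23 to 4.62 FPKM in all 7. Ppbp, a defining platelet chemokine, was at 0 in all 7, Gp9 was above 0 in 3 and Tubb1 in 1.

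The other 8 lists covered further lung and blood cells. Endothelial markers summed to 24.5 to 49.8 FPKM in tissue and 5.53 to 60.5 in circulation, and fibroblast and smooth muscle markers to 7.14 to 53.3 and 14.4 to 69.8. Other lung epithelium summed to 4.06 to 43.4 FPKM in tissue and 0 to 108 in circulation, and dendritic cell markers to 4.81 to 27.7 and 0 to 12.0. Neutrophil markers, with S100a8, S100a9 and Ly6g at 0 in all 7 libraries, summed to 2.72 to 16.2 FPKM in tissue and 0 to 2.43 in circulation. Eosinophil, mast cell and basophil markers stayed at or under 9.71 FPKM, erythroid markers at or under 4.48 and natural killer cell markers, with Ncr1 at 0 in all 7, at or under 2.01.

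**Figure D3:**
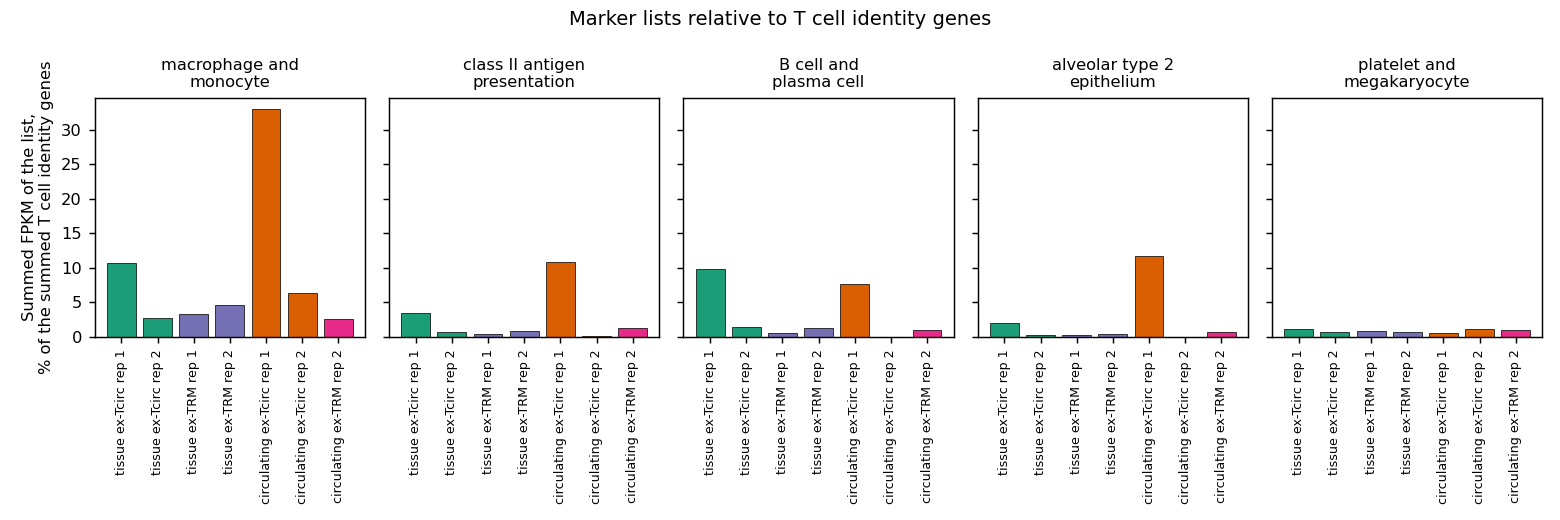
Summed FPKM of 5 marker lists as a percentage of the summed FPKM of the T cell identity genes (y axis, linear from 0), with 1 bar per library and a colour per group. The macrophage and monocyte bar of circulating ex-Tcirc replicate 1 is the tallest at 32.9%, and the platelet bars vary between 0.501% and 1.11%.

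Replicates of a group differed in their marker levels. In circulating ex-Tcirc, the 7 markers that replicate 1 listed were all higher there than in replicate 2, as were 36 of 42 other list genes (85.7%), 68.7% of all gene names and 8 of 14 T cell identity genes. Most of these counts come from zeros in replicate 2: among genes above 0 in both, 2 of 2 markers, 7 of 11 other list genes and 2518 of 5381 gene names were higher in replicate 1, with a median ratio over all gene names of 0.903. In tissue, the gap was wider for ex-Tcirc. All 8 markers were higher in replicate 1 of tissue ex-Tcirc, and the 7 above 0 in both were 3.07 to 6.79 times as high there. Of the other list genes above 0 in either library, 75 of 91 (82.4%) were higher in replicate 1, with a median ratio of 3.37 over the 56 above 0 in both. Over all gene names, 65.6% were higher in replicate 1, with a median ratio of 1.84. T cell identity genes were higher in replicate 1 for 1 of 15, with a median ratio of 0.761. The gap between non-T and T cell genes stood beside a shift over all gene names, in a library with an estimated 24.0% of the deepest library's depth, and the part of depth in it was not tested.

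Between the tissue ex-TRM replicates the differences were smaller. Replicate 2 was higher for 5 of the 8 markers, at 1.56 times for Lyz2, 1.75 for Cd74, 1.59 for H2-Ab1, 2.68 for Igkc and 2.33 for Ighm. Apoe was at 0.936 times, and Sftpc and Pf4 were above 0 in replicate 1 only. Other list genes were higher in replicate 2 for 85 of 117 (72.6%), against 62.1% of all gene names.

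How far a 0 can be read depended on the library. Of 1568 genes at 20 to 50 FPKM in both tissue ex-TRM libraries, circulating ex-Tcirc replicate 1 listed 23.6% at 0 and replicate 2 listed 57.5%, against 0.446% for circulating ex-TRM replicate 2. Of 501 genes at 100 FPKM or more, 2.2% and 20.2% were at 0 in circulating ex-Tcirc. Some T cell genes were listed at 0 in circulating ex-Tcirc too. Cd3d was at 19.2 to 22.6 FPKM in tissue, 27.7 in circulating ex-TRM replicate 2 and 0 in both circulating ex-Tcirc libraries. Lck was at 0 in circulating ex-Tcirc replicate 2. Zeros of Apoe, H2-Ab1, Igkc, Ighm and Sftpc in circulating ex-Tcirc replicate 2, and of Pf4 in both, therefore do not show absence.

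**Figure D4:**
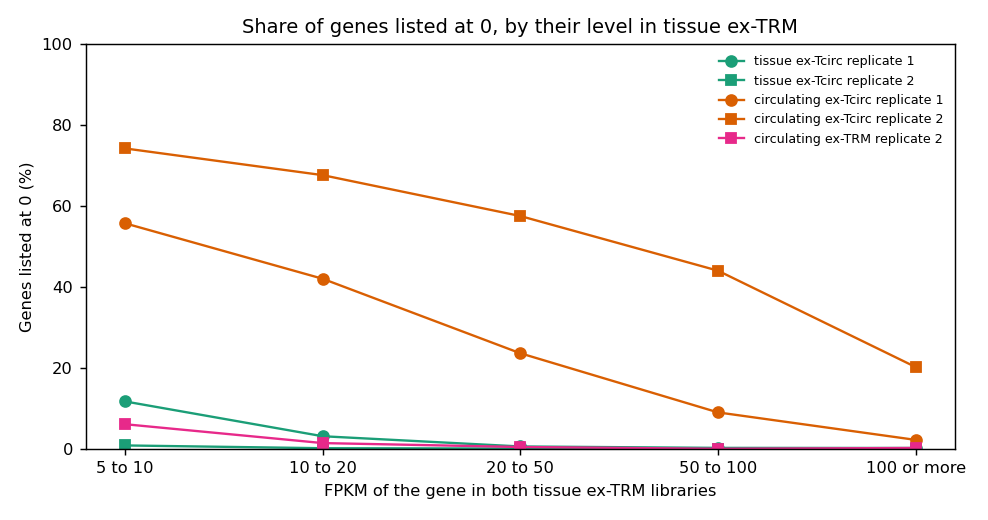
Share of genes listed at 0 in a library (y axis, percent) by their FPKM in both tissue ex-TRM libraries (x axis, in 5 classes), with 1 line per library. Circulating ex-Tcirc replicates 1 and 2 list 55.7% and 74.2% of genes at 0 in the class of 5 to 10 FPKM, and the other libraries at most 11.7%.

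The first comparison asked whether cells from tissue and from circulation differed in non-T marker levels. Averaged over origin, the tissue and circulating ranges overlapped for all 8 markers. Lyz2 had a log2 difference, tissue minus circulating, of -1.24 ± 0.67 (SE), Sftpc of -2.55 ± 2.77, Igkc of 1.40 ± 2.09 and Cd74 of -0.95 ± 1.45. Pf4, listed at 0 in all 3 circulating libraries, was at 1.92 ± 0.67. Pf4 passed the filter on low values through tissue alone, and its zeros add no spread, so its SE is too small. The median log2 difference over all tested genes was 0.55. These marker differences are a description, not a test. H2-Ab1, at -0.03 ± 1.85, turned to 0.12 with median-of-ratios scaling.

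Among the other 157 list genes, 85 were tested and limma called 7 (8.24%), all higher in tissue, against 12.8% of the 28325 genes tested, or 12.5% counting those higher in tissue. Their median log2 difference was 0.26, against 0.55 over all genes. The 7 were Abca3, the dendritic cell chemokine receptor Xcr1, the endothelial receptor gene Calcrl, the haem synthesis gene Alas2, elastin (Eln), C1qa and the epithelial gene Hopx. Calcrl was at 9.77 and 9.37 FPKM among ex-Tcirc cells from tissue, 9.04 and 6.96 among ex-TRM cells from tissue and 0 in the 3 circulating libraries. Alas2 was at 0 in both tissue ex-Tcirc libraries and at 1.90 and 1.91 FPKM in tissue ex-TRM, so its call rests on ex-TRM cells. All but Abca3 were at 0 in all 3 circulating libraries, so they passed the filter on low values through tissue alone, and their p-values are too small. The p-value of Abca3 is too small as well, since its zeros in both circulating ex-Tcirc libraries add no spread. Its level in circulating ex-TRM replicate 2, 6.67 FPKM, lay just below the tissue ex-TRM levels of 6.98 and 8.13. The averaged call of Abca3 thus rests mainly on ex-Tcirc cells. Neither circulating ex-Tcirc library listed any of these 7 above 0, and the same held for 98.2% of all genes called higher in tissue and for 53.9% of all genes tested. The T cell gene Cd3d was called higher in tissue as well. The count of list genes fell to 0 with a mean of at least 20 FPKM, where 2 list genes remained in the test and 7.34% of 2656 genes were called, and also to 0 without tissue ex-TRM replicate 1 or without replicate 2. The list count rose without either tissue ex-Tcirc library and without circulating ex-Tcirc replicate 1, as did the count over all genes. Each of these fits left 1 library in that group. Without circulating ex-Tcirc replicate 2 most of the few called list genes were lower in tissue, while most called genes were still higher. The list genes then had a median log2 difference of 0.07, against 0.45 over all genes.

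Within ex-Tcirc, the only origin with 2 usable libraries at both locations, 2 of the 8 markers had ranges that did not overlap, where 51.1% of all genes tested did not overlap either and limma called 21.1%. Lyz2 was higher in both circulating libraries, with a log2 difference of -2.78 ± 0.85 (SE), and Pf4 was above 0 in tissue only. Apoe, at 2.34 ± 2.54 (SE), turned to -1.39 without circulating ex-Tcirc replicate 2, and Igkc, at 3.10 ± 2.65, to -0.57. Cd74, at -0.57 ± 1.83, turned to 1.90 without circulating ex-Tcirc replicate 1. The direction of these markers thus changed with 1 library. Of the other list genes limma called 8 of 85 (9.41%), all higher in tissue, against 20.7% of all genes in that direction. Abca3, Xcr1, Calcrl, Eln, C1qa and Hopx were among them, beside the gelatinase gene Mmp9 of the neutrophil list and the platelet glycoprotein gene Gp5, and again all 8 were at 0 in both circulating libraries. The list count fell without either tissue ex-TRM library and rose without either tissue ex-Tcirc library, as did the count over all genes. Each of these fits left 1 library in that group. Without circulating ex-Tcirc replicate 2 most called list genes were lower in tissue, while most called genes were still higher. The list genes then had a median log2 difference of 0.46, against 0.97 over all genes.

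The second comparison asked whether tissue ex-TRM differed from tissue ex-Tcirc in non-T marker levels. Igkc, Ighm and Pf4 were lower in both tissue ex-TRM libraries than in both tissue ex-Tcirc libraries, and the other 5 markers overlapped, where 32.3% of all genes tested did not overlap either and limma called 0%. Ighm had a log2 difference, tissue ex-TRM minus tissue ex-Tcirc, of -2.05 ± 2.33 (SE), Igkc of -2.39 ± 2.65, and Lyz2 of 0.09 ± 0.85. Among 28325 tested genes limma found 0 past the threshold; 1398 had an unadjusted p under 0.05, and the lowest adjusted p was 0.0714. Of the 85 other list genes 0 passed, and 4 had an unadjusted p under 0.05. The other list genes had a median log2 difference of -0.34, against -0.04 over all genes. Without circulating ex-TRM replicate 2 the list count was 1 of 77, where 479 of 26135 genes were called. Leaving out either tissue ex-Tcirc library raised the list count and also the count over all genes, with 1 library left in that group. Lyz2 turned to -0.86 without tissue ex-Tcirc replicate 2, and Apoe, at -0.77 ± 2.54, to 0.03 without tissue ex-Tcirc replicate 1.

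In circulating ex-TRM only replicate 2 had values, so no spread is available there and its level cannot be set against its own group. Its markers, from 0 for Pf4 to 50.6 FPKM for Lyz2, lay below those of circulating ex-Tcirc replicate 1 for the 7 that this library listed. Its Sftpc, at 23.0 FPKM, exceeded both tissue ex-TRM values, and its Ighm, at 8.84, lay between them.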

How the data were processed

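RNA-seq of sorted cells gave 8 libraries in 4 groups of 2, grouped by sample title. Per the file headers, the authors deposited FPKM, a fragment count scaled by gene length and by the mapped fragments of the library. StringTie 3.0.1, HISAT2 2.2.1, Trim Galore 0.6.7, SAMtools 1.15 and the build mm10 appear in the submitters' processing notes, with no role given for any tool. The strand-specific kit is named in the labels, and the strand setting of the counting is not given in the sources used here. Values of rows with the same gene name were summed, and 38990 of 55291 names (70.5%) matched RefSeq symbols.

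On log2(FPKM + 1), limma 3.58.1 (R 4.3.3) fitted a model with group means and an intensity trend, over 7 libraries without circulating ex-TRM replicate 1. It tested the 28325 genes with at least 1 FPKM in 2 or more libraries, adjusted by Benjamini-Hochberg with a threshold of 0.05. A log2 difference on this scale understates the change of low genes. Genes at 0 in both libraries of a group add no spread there, so their SE and p are too small. Alternatives were other pseudocounts, filters, scalings and library sets and a replicate block. Genes named are the 8 markers, the defining markers of each list, the 3 highest genes per list, called list genes and the 3 genes most correlated with each marker. Further list genes were named after their values were seen. The 8 markers and all gene lists were chosen with earlier results of these data known. The 14 ATAC-seq samples were not analysed here.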

Additional observations from a re-analysis of the deposited data

Results flagged for a closer look

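In 5 of the list genes named by the rule, location moved in opposite directions in ex-Tcirc and ex-TRM, with every library of a side on the same side, although circulating ex-TRM had 1 library. Both circulating ex-Tcirc libraries were below both tissue ex-Tcirc libraries, and circulating ex-TRM replicate 2 was above both tissue ex-TRM libraries. In that library the mast cell gene Cpa3 was at 1.94 FPKM, the dendritic cell genes Clec9a at 2.07 and Zbtb46 at 5.16, the class II coactivator Ciita at 1.34 and the epithelial gene Tppp3 at 5.50. The circulating ex-Tcirc values were 0 except for Clec9a at 0.592 FPKM in replicate 1, and a 0 there does not show absence. The same pattern was found in 8 of 93 tested list genes (8.6%) and in 22.8% of all genes tested. These differences between origins were not tested. In the nearly empty circulating ex-TRM replicate 1, which no comparison uses, the collagen gene Col1a2 was at 108 FPKM, above the highest value of 6.71 in the other libraries.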

How the results depend on the processing

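The number of genes called moved with most choices, in the order tissue against circulating averaged, the same within ex-Tcirc, and tissue ex-TRM against tissue ex-Tcirc. A pseudocount of 0.1 gave 6845, 9711 and 814 genes, of which 13, 17 and 3 were list genes. A mean of at least 20 FPKM gave 195 and 242 genes in the location comparisons and 0 list genes. Rescaling each library to the same sum gave 2409 genes averaged, with 4 and 5 list genes in the location comparisons. No filter and median-of-ratios scaling gave 584 and 486 genes between tissue groups, with 2 and 1 list genes. Including circulating ex-TRM replicate 1 gave 0 genes and 0 list genes in both location comparisons. Leaving out each library gave 0 to 10141, 3448 to 10836 and 0 to 5716 genes, and 0 to 23, 2 to 25 and 0 to 16 list genes. The averaged comparison has no value without circulating ex-TRM replicate 2. Of 357 alternative log2 differences of the 8 markers, 332 kept their sign, and 341 stayed within the replicate SD. Many of the 357 could not move, since a filter, or leaving out a library outside the comparison, does not change a marker's difference. The replicate SD is wide where a replicate was at 0, so some turns of sign stayed within it. Averaged over origin, Apoe went from 1.66 to -0.205 without circulating ex-Tcirc replicate 2. The counts therefore do not show that the differences are stable. Of the alternative list shares, 36 moved by less than the replicate SD and 69 by more. Shares with Cd3e alone as the denominator are on another scale, so a move was nearly certain. With it, the macrophage and monocyte share of tissue ex-Tcirc replicate 1 went from 10.6% to 264%. Circulating ex-TRM replicate 2 has no replicate SD, so any change there was counted as more. This split is thus no measure of stability. The causes were not tested.

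With the replicate number as a block, 0 genes were called averaged over origin and 2786 in ex-Tcirc, with 0 and 2 list genes. Same-numbered replicates of different groups deviated from their group means with correlations of -0.11, -0.08 and 0.02. With libraries of unequal depth and many zeros, these values cannot tell whether equal numbers stand for anything shared. Read totals are unknown, and a 0 shows least in circulating ex-Tcirc, where zeros were most frequent. The cause of those zeros was not tested.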
